A study of Arabidopsis thaliana with 8 samples.

Results

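The plastid genome of *Arabidopsis thaliana* carries, beside its photosynthesis genes, the genes by which the organelle transcribes, splices and translates its own RNA, and a few genes of protein turnover, fatty acid synthesis and complex assembly. The members described here were all protein-coding plastid genes in the array's gene table other than *psa*, *psb*, *pet*, *atp*, *ndh* and *rbcL* genes, each with its brightest probe set. The rule found 32 genes. For 26 of them, of the 13350 genes on the array with a probe set that lists 1 gene, the probe set lists that gene alone: 4 *rpo*, 8 *rps* and 7 *rpl* genes and 7 others (*matK*, *clpP*, *accD*, *ycf3*, *ycf4*, *ccsA* and *cemA*). For the other 6 (*rpl2*, *rpl23*, *rps7*, *rps12*, *ycf1* and *ycf2*) the array annotation lists more than 1 entry of the gene. In the gene order used here *rpl2*, *rpl23*, *rps7* and *ycf2* appear in both copies of the plastid genome's inverted repeat. The entries of *rps12* lie between *rpl20* and *clpP*, and *ycf1* appears once. Probe sets of these 6 cannot tell the entries apart, and the 6 are counted separately, below as genes listed in both copies.

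RNA came from whole rosettes of the pgm mutant in the Col-0 background, 5 to 6 weeks old. This mutant lacks the plastidial phosphoglucomutase and makes almost no leaf starch. All groups carry this mutation, and a wild type is not analysed here. Each sample was ground from 15 rosettes, gathered as 5 lots of 3, and its biotin-labelled cRNA was hybridised to 1 Affymetrix array. The 8 arrays cover 6 hours: 00h and 12h with arrays A and B, and 04h, 08h, 16h and 20h with array A alone. The labels do not say when the lights were on, nor whether A and B of an hour were separate plants, so p-values here measure only the spread between arrays. An hour with 1 array has no replicate check. Values are deposited MAS5 intensities on a linear scale. Changes and levels in log2 units are of log2(intensity + 16), where the added 16 shrinks the changes of dim genes. Because rosettes are bulk tissue, fewer cells of a type and less RNA per cell cannot be told apart.

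All arrays had the same trimmed mean of 100. Hybridisation controls, which are spiked into the sample, were bright on 00h A and 12h A (geometric means 846.6 and 874.4) and dim on the other 6 arrays (210.6 to 269.2). At 00h and 12h the bright arrays are those lettered A, so the main changes below are also given within the A pair and within the B pair, and from a fit with control brightness (bright or dim) as a block. Of the 5 green leaf markers, 4 had a probe set, and these read 1180 to 6705 over the 8 arrays. Of these *LHCB4.2*, of a light-harvesting protein, fell by 0.84 ± 0.30 SE on the log2 scale from 00h to 12h (adjusted p = 0.04629, limma), and the other 3 did not pass the test. The guard cell marker *FAMA* read 41.5 to 88.1 and the phloem marker *SWEET11* 501.9 to 1244. Flower and seed markers are not analysed here. *PYK10*, a gene of root and seedling β-glucosidase, fell from a mean of 285.9 at 00h to 123.5 at 12h (log2 change -1.11 ± 0.21 SE, limma adjusted p = 0.001822), and the part of either change in those below was not tested.

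As background, chloroplast genes are transcribed by a bacterial-type polymerase whose core subunits are encoded in the plastid and by phage-type polymerases encoded in the nucleus. In leaves the first transcribes mainly photosynthesis genes, while many housekeeping genes, those of the *rpoB* cluster among them, have promoters for the nuclear-encoded enzyme. Most plastid genes lie in clusters that are transcribed together and then cut and spliced, and steady-state RNA depends heavily on stability. In chloroplasts a poly(A) tail marks an RNA for decay. The labels used here do not say how cDNA synthesis was primed, and its part in the values was not tested.

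At 12h compared with 00h, 3 of the 26 members were higher and 0 were lower: *rpoB*, *rps14* and *rps16*. Among the genes listed in both copies, *ycf2* was higher as well. These 4 moved by 0.88 to 1.97 log2 units, while 24 of the 26 members moved by less than 1 log2 unit. Calls are limma tests across 13647 probe sets with Benjamini-Hochberg adjustment, at 0.05. Over all these probe sets 40.5% were called, 21.9% as higher and 18.6% as lower. At an unadjusted p below 0.05, 5 members were higher and 0 lower, against 26.7% and 22.5% of all probe sets. The median change of the members was 0.08 log2 units and that of all probe sets tested 0.06. The median size of a member's change, whatever its sign, was 0.28, against 0.53 over all. The members' median SE was 0.29, against 0.24 over all, so their small number of calls stands beside both smaller changes and a wider spread between arrays. Neither feature was particular to the members. The 43 plastid photosynthesis genes had a median size of change of 0.31 and a median SE of 0.32. Leaving out array 00h B sets 1 bright-control array of 00h against a bright and a dim array of 12h. Differences between bright and dim arrays then enter the change, and *rpoC2* was added as higher and *rpl14* as lower. Within the A pair and the B pair *rpoC2* changed by 0.08 and 0.04 log2 units, and *rpl14* by -0.34 and -0.33. Blocking on control brightness gave the members smaller SEs, and 7 members were called, against 50.7% of all probe sets in that fit: *matK* and *ycf3* were added as higher, and *rpoA* and *rpl32* as lower. The actin 3′ to 5′ signal ratio, a sign of RNA integrity, came to 2.69 and 2.74 for the arrays of 00h and to 3.11 and 3.19 for those of 12h. On the arrays of the other hours it was 2.29 (16h) to 2.57 (20h), so both 12h arrays had the highest ratios. The part of this ratio in the changes was not tested.

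**Figure D1:**
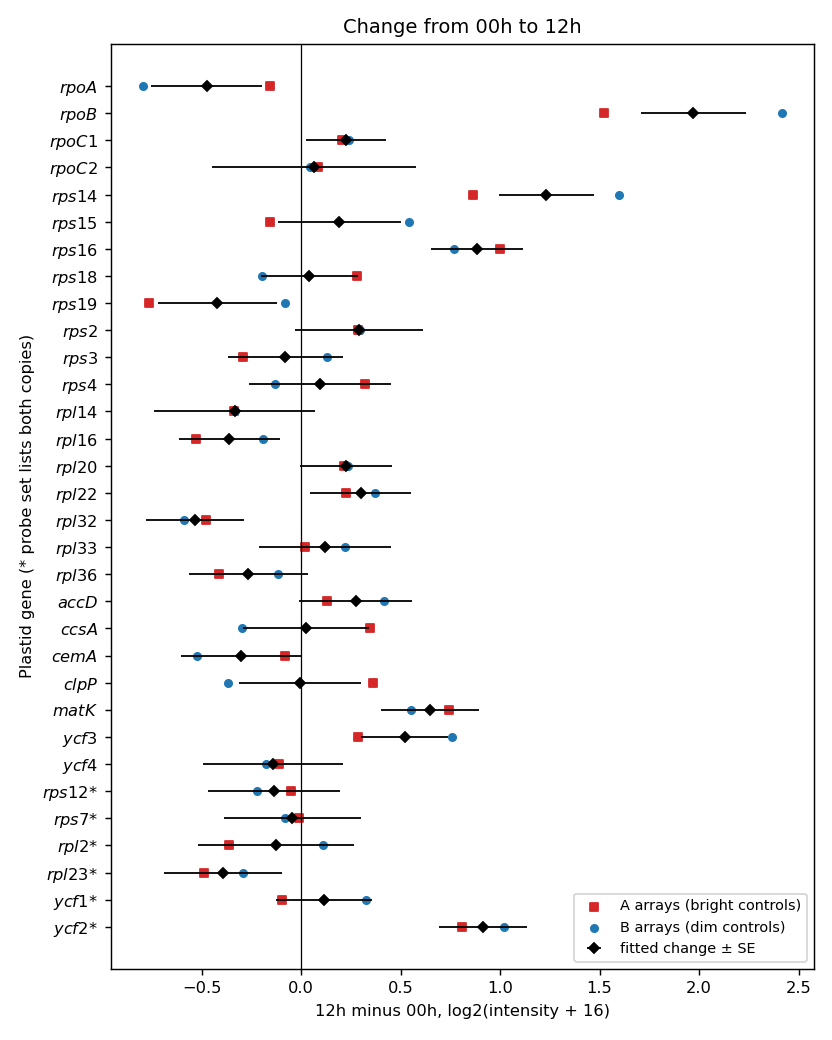
Change from 00h to 12h of each plastid gene, in log2(intensity + 16) units on the horizontal axis. Diamonds with bars are fitted changes ± SE, squares the change between the A arrays and circles the change between the B arrays; *rpoB* lies at 1.97, and most other genes lie within 0.5 of 0.

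The *rpo* genes encode the core of the plastid-encoded polymerase: *rpoA* the α subunit, *rpoB* the β subunit, and *rpoC1* and *rpoC2* the parts of the β′ subunit. *rpoB* read 43.5 and 27.6 on arrays A and B of 00h, 42.8 at 04h, 54.2 at 08h, 155.1 and 217.1 at 12h, 58.7 at 16h and 49.6 at 20h. Both 12h arrays stood well above the other 6, which lay close together. Its mean rose from 35.6 ± 11.2 (SD, n = 2) at 00h to 186.1 ± 43.8 (SD, n = 2) at 12h, which is 1.97 ± 0.26 (SE) on the log2 scale (adjusted p = 0.0002579, limma). Within the A pair the log2 change was 1.52 and within the B pair 2.42. The fit with control brightness as a block gave an SE of 0.24 (limma adjusted p = 9.443e-06). At 00h *rpoB* was near the median of all probe sets on the arrays of that hour (31.0 and 29.9), and its change ranged from 1.32 with 64 added to 2.37 with 1 added.

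*rpoC1* and *rpoC2* follow *rpoB* in the plastid genome and are transcribed with it. *rpoC1* read 269.3 and 256.7 at 00h, 337.5 at 04h, 314.5 at 08h, 313.5 and 305.9 at 12h, 302.2 at 16h and 379.0 at 20h. The 12h arrays were above those of 00h but inside the range of the other hours, and the log2 change of 0.22 ± 0.20 did not pass the test (limma adjusted p = 0.4094, 95% interval -0.22 to 0.67). That interval lies wholly below the interval of *rpoB*, 1.38 to 2.56, although the difference between the genes was not itself tested. *rpoC2* read 130.8 on 00h A and 139.7 on 12h A, and 264.0 to 418.9 on the other 6 arrays. For *rpoC2* the arrays divided by the brightness of their hybridisation controls and not by hour, so that its log2 change of 0.06 had an SE of 0.51. Blocking on control brightness, this SE was 0.18 and the adjusted p 0.7983. On the other side of *rpoB* lies *petN*, of a small subunit of the cytochrome b6f complex, which rose by 1.23 ± 0.24 log2 units (limma adjusted p = 0.002198).

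*rpoA*, far from the other *rpo* genes at the end of the ribosomal protein cluster, had the opposite order. It read 1646 and 1963 at 00h, 1288 at 04h, 1264 at 08h, 1478 and 1124 at 12h, 1175 at 16h and 1010 at 20h. Both 00h arrays were above the other 6, and the lowest value was at 20h. The log2 change from 00h to 12h was -0.47 ± 0.28 (limma adjusted p = 0.2004), with -0.15 in the A pair and -0.80 in the B pair. With control brightness as a block the adjusted p was 0.04521.

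Small-subunit ribosomal protein genes, *rps*, gave 2 of the 3 calls. *rps14* read 142.9 and 96.5 at 00h, 136.0 at 04h, 138.1 at 08h, 273.2 and 324.9 at 12h, 101.9 at 16h and 59.0 at 20h. It was highest on both 12h arrays and lowest at 20h. The mean rose from 119.7 ± 32.8 (SD, n = 2) to 299.1 ± 36.6 (SD, n = 2), a log2 change of 1.23 ± 0.24 (limma adjusted p = 0.002351), with 0.86 in the A pair and 1.60 in the B pair. The fit with control brightness as a block gave an SE of 0.22 (limma adjusted p = 0.000286). *rps14* lies between *psbZ* and *psaB*, of photosystem II and photosystem I, and is transcribed with *psaA* and *psaB*. These neighbours did not pass the test at 12h: *psbZ* changed by 0.08 ± 0.28 log2 units and *psaB* by 0.09 ± 0.48.

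*rps16* read 137.6 and 195.0 at 00h, 174.8 at 04h, 182.0 at 08h, 291.1 and 343.2 at 12h, 155.2 at 16h and 163.4 at 20h. Only the 12h arrays left the range of 137.6 to 195.0 that held the other 6. The mean rose from 166.3 ± 40.6 (SD, n = 2) to 317.2 ± 36.8 (SD, n = 2), a log2 change of 0.88 ± 0.23 (limma adjusted p = 0.01152), with 0.9995 in the A pair and 0.7675 in the B pair. This call was lost without array 00h A, where the change was 0.65. That fit sets 1 dim-control array of 00h against a bright and a dim array of 12h. Differences between bright and dim arrays then enter the change. The fit with control brightness as a block gave *rps16* 0.88 ± 0.19 (SE, limma adjusted p = 0.001467).

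The other 6 *rps* genes with 1-gene probe sets had log2 changes between -0.42 (*rps19*) and 0.29 (*rps2*), and none passed the test. *rps4*, whose protein binds early in ribosome assembly in *Escherichia coli*, read 1222 and 2266 at 00h, 1837 at 04h, 1842 at 08h, 1533 and 2067 at 12h, 1946 at 16h and 2434 at 20h. The values on the A arrays of 00h and 12h were the lowest of the 8. *rps2* had the same feature, with 322.1 on 00h A and 396.1 on 12h A against 553.6 to 1020 on the others. *rps18* ranged from 211.9 to 332.3, *rps3* from 1030 to 1653, *rps19* from 966.1 to 1652 and *rps15* from 100.5 to 242.5. For *rps19* both 00h arrays (1652 and 1637) were above all others. *rps15* was highest on 12h B (242.5), whereas 12h A read 114.2.

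Large-subunit genes, *rpl*, gave 0 calls of 7 in the limma test, also at an unadjusted p below 0.05, which 49.1% of all probe sets met, and their median log2 change was -0.27. *rpl32* read 1515 and 1702 at 00h, 822.2 at 04h, 1037 at 08h, 1085 and 1126 at 12h, 765.3 at 16h and 815.2 at 20h. It was highest on both 00h arrays and changed by -0.53 ± 0.25 log2 units to 12h (limma adjusted p = 0.1094), with -0.48 in the A pair and -0.59 in the B pair. With control brightness as a block the adjusted p was 0.01615. *rpl14* read 648.9 and 290.9 at 00h and 509.6 and 228.2 at 12h, so the arrays of each hour differed more than the hours, and its other values were 355.4 to 655.2. *rpl16* ranged from 847.9 at 12h to 1752 at 20h, *rpl20* from 196.5 to 306.7, *rpl22* from 1036 to 1402, *rpl33* from 762.1 to 1351 and *rpl36* from 1038 to 1736.

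From *rpl23* through *rpoA* the plastid genome holds a cluster of ribosomal protein genes ordered much as in bacteria and transcribed in long common RNAs. Of its 9 genes with a probe set here, 8 had a 12h value below the 00h value on average, and 6 were lower in the A pair and in the B pair. Over all probe sets tested, 46.6% were lower on average and 38.4% in both pairs. None of the 9 passed the limma test, and their changes lay between -0.47 (*rpoA*) and 0.30 (*rpl22*). Counted in the same way, all 3 genes from *rpoB* to *rpoC2* were higher in both pairs, of which *rpoB* passed the test. From *rpl33* to *clpP*, 3 of 4 genes with a 1-gene probe set were higher on average, 2 were higher and 0 lower in both pairs, and none passed the test. Over all probe sets 44.3% were higher in both pairs. These groupings were drawn up after the values were seen.

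*matK* encodes the plastid's own splicing factor for group II introns. It read 619.6 and 800.3 at 00h, 963.4 at 04h, 861.0 at 08h, 1049 and 1181 at 12h, 898.6 at 16h and 780.9 at 20h. Both 12h arrays were above the other 6, with a log2 change of 0.65 ± 0.25 that missed the threshold (limma adjusted p = 0.06013; 0.74 in the A pair and 0.55 in the B pair). With control brightness as a block the adjusted p was 0.005593. *matK* and *rps16* are neighbours in the plastid genome. The genes on either side did not pass the test, *psbA* with 0.54 ± 0.61 log2 units and *psbK* with -0.51 ± 0.40.

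**Figure D2:**
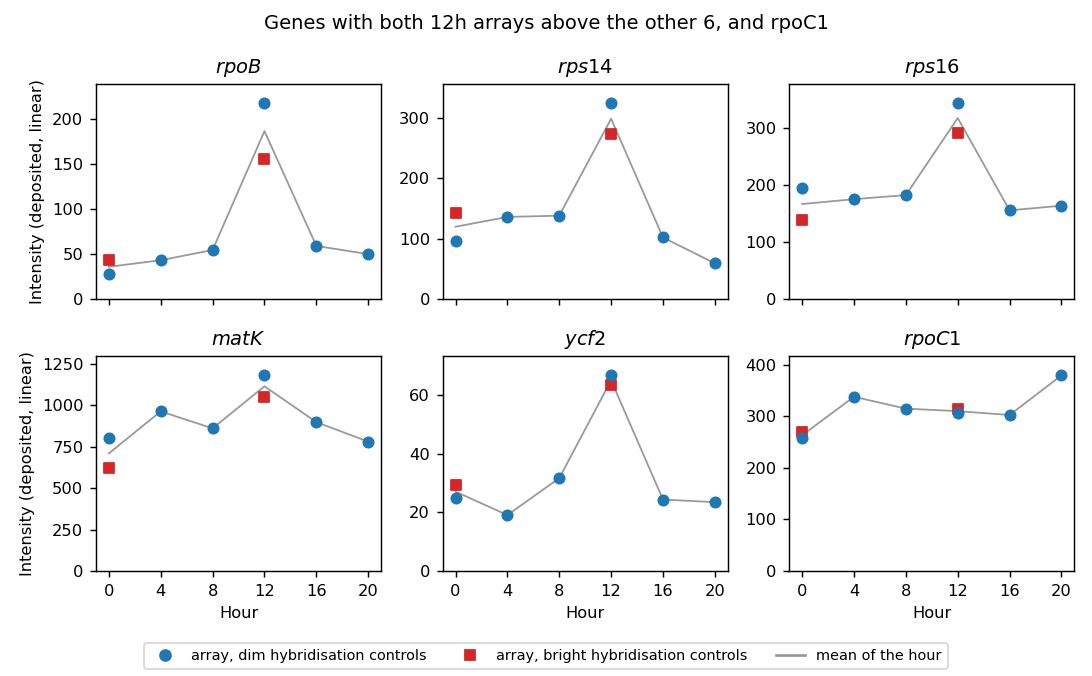
Deposited intensity (linear, from 0) against hour for *rpoB*, *rps14*, *rps16*, *matK*, *ycf2* and *rpoC1*. Circles are arrays with dim and squares arrays with bright hybridisation controls, and the line joins hour means; in all but *rpoC1* both 12h arrays lie above the other 6.

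*clpP* encodes the catalytic subunit of the Clp protease of the stroma. It read 1382 and 1496 at 00h, 1961 at 04h, 1766 at 08h, 1778 and 1156 at 12h, 1865 at 16h and 2151 at 20h. The 12h arrays lay on either side of those of 00h, and the log2 change was 0.00 ± 0.31, the 95% interval running from -0.69 to 0.68. *cemA*, of a protein of the chloroplast inner envelope, read 1940 and 1821 at 00h, 1770 at 04h, 1584 at 08h, 1836 and 1261 at 12h, 1691 at 16h and 2349 at 20h. It was highest at 20h and lowest on 12h B. *ycf4*, of a photosystem I assembly factor and the neighbour of *cemA*, was also lowest on 12h B (741.8) and highest at 20h (1631). *ycf3*, of another photosystem I assembly factor, read 296.1 and 236.0 at 00h, 429.3 at 04h, 398.5 at 08h, 364.1 and 409.7 at 12h, 389.2 at 16h and 556.5 at 20h. The 00h arrays were the lowest of the 8, and the log2 change to 12h was 0.52 ± 0.22 (limma adjusted p = 0.08076), or 0.0332 with that block. *accD*, of a subunit of the plastid acetyl-CoA carboxylase, ranged from 182.3 on 00h B to 481.3 at 20h. *ccsA*, needed to attach haem to cytochromes, ranged from 1154 on 00h A to 1956 on 00h B.

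Among the genes whose probe sets list both copies, *ycf2*, of a large ATPase-related envelope protein, read 29.3 and 24.9 at 00h, 19.1 at 04h, 31.7 at 08h, 63.4 and 66.8 at 12h, 24.4 at 16h and 23.5 at 20h. Both 12h arrays lay apart from the rest. The log2 change was 0.91 ± 0.22 (limma adjusted p = 0.008157), with 0.81 in the A pair and 1.02 in the B pair. The fit with control brightness as a block gave a limma adjusted p of 0.002554. Outside 12h the gene read below the median of all probe sets on its array (29.9 to 37.6), and its log2 change ran from 0.50 with 64 added to 1.24 with 1 added. Its neighbours *rpl23* (-0.39 ± 0.30) and *ndhB* (0.66 ± 0.25, limma adjusted p = 0.06085) did not pass the test. *ndhB* read 84.8 and 128.8 on the 12h arrays and 38.1 to 60.9 on the rest, so it too was highest on both 12h arrays.

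The remaining 5 of these genes did not pass the test. *rpl2*, of a core protein of the ribosome's peptidyl transferase region, read 4890 and 2836 at 00h, 3556 at 04h, 3245 at 08h, 3801 and 3057 at 12h, 2990 at 16h and 3379 at 20h. It was highest on the 2 arrays with bright controls. *rps7*, of a protein that starts assembly of the small subunit's head in *E. coli*, read 2892 and 3190 at 00h, 3949 at 04h, 3626 at 08h, 2876 and 3017 at 12h, 3405 at 16h and 3687 at 20h. Its values at 00h and 12h were below those of the single-array hours. *rpl23*, of a protein near the exit of the peptide tunnel, read 2495 and 1974 at 00h, 1925 at 04h, 1746 at 08h, 1773 and 1607 at 12h, 1768 at 16h and 2046 at 20h. Both 12h arrays were below both 00h arrays. *rps12*, which is assembled from separate transcripts by trans-splicing, ranged from 897.0 on 12h A to 2408 at 20h. *ycf1*, of a subunit of a protein import complex of the inner envelope, ranged from 667.0 to 1013.

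**Figure D3:**
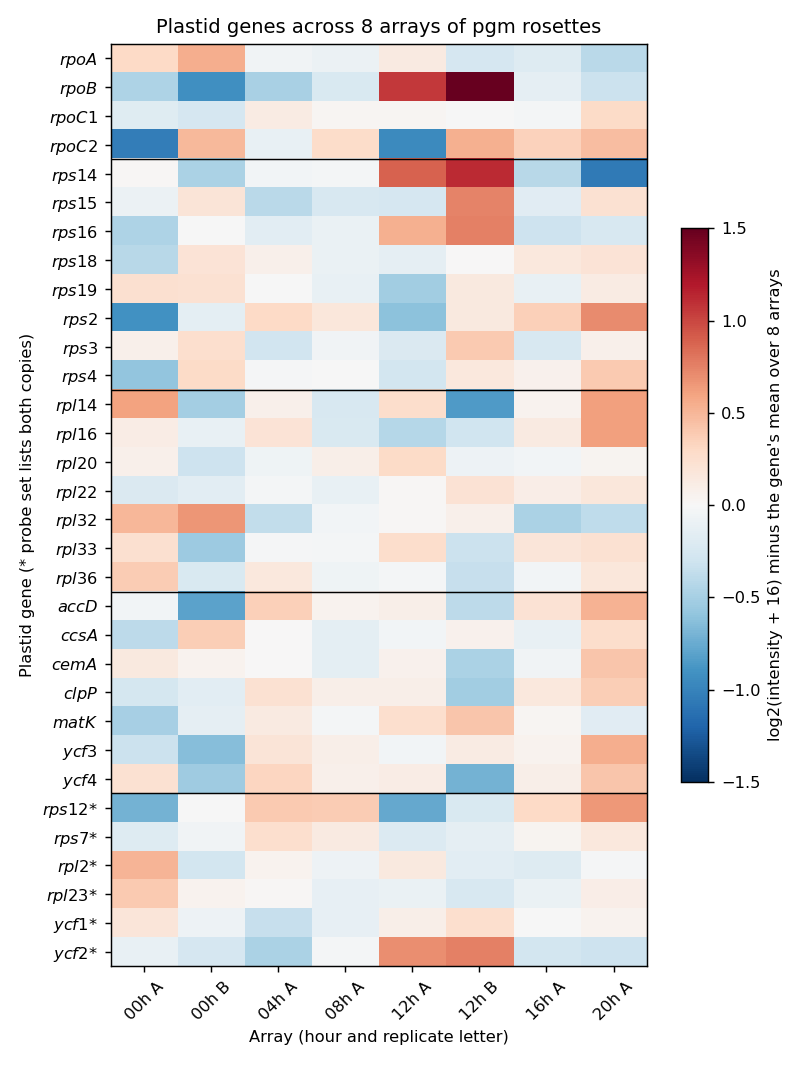
Colour gives log2(intensity + 16) minus the gene's mean over the 8 arrays, with genes in rows (*rpo*, *rps*, *rpl*, others, then genes listed in both copies, marked by an asterisk) and arrays in columns. *rpoB*, *rps14* and *rps16* are red on both 12h arrays, and many genes are red at 20h.

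Across the 24 h, a cosine curve was fitted to each gene over the 8 arrays. *rpoB* passed the test, 1 of the 26 members, where 40.7% of all probe sets did. Its amplitude was 0.84 ± 0.18 log2 units with the peak at 12.3 h (limma adjusted p = 0.01226). Without array 12h A the adjusted p was 0.05091, and on the 6 arrays with dim controls 0.07972, where 0 members and 27.1% of all probe sets passed. *rps14* had an amplitude of 0.69 ± 0.21 with a peak of the fitted curve at 9.6 ± 1.3 h (SE, limma adjusted p = 0.05204). At 04h and 08h the gene read 136.0 and 138.1, below the 142.9 of 00h A. It passed with control brightness as a block (0.038), without 00h A (0.02858) and without 08h A (0.01197). The median amplitude over the members was 0.18 log2 units, against 0.36 over all probe sets tested. Over the 43 plastid photosynthesis genes, of which 3 passed the test, it was 0.19.

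The mean of 04h, 08h and 12h was also set against that of 16h, 20h and 00h, a division already seen in earlier results of these data. Of the 26 members 2 were higher and 0 lower, while over all probe sets 42.8% were called, 23.0% as higher and 19.9% as lower. At an unadjusted p below 0.05, limma gave 3 higher and 0 lower, against 27.4% and 23.4% of all probe sets. *rps14* was higher by 0.88 ± 0.18 log2 units (limma adjusted p = 0.002734) and *rpoB* by 0.57 ± 0.20 (limma adjusted p = 0.03817). The *rpoB* call was lost without 00h B (adjusted p = 0.0554) and without 12h B (0.05089). With control brightness as a block 5 members and 52.4% of all probe sets were called, adding *rps16* as higher (adjusted p = 0.03229) and *rpl14* (0.02365) and *rpl16* (0.02414) as lower. For 0 of the 32 genes did the 4 arrays of one side lie apart from the 4 of the other, as they did for 39.2% of all probe sets. *rpoB* and *rps14* at 04h and 08h were no higher than on the highest of the arrays of 16h, 20h and 00h.

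The hour at which most members were highest was 20h. Of the 26 members 16 had their highest hour mean there, against 15.5% of all probe sets tested. Another 6 were highest at 12h and 4 at 00h, where 18.0% and 21.1% of all probe sets were. The lowest hour mean was most often at 00h, for 11 members and 28.5% of all probe sets. On the single 20h array 11 members read above every other array, against 10.1% of all probe sets and 5 of 43 plastid photosynthesis genes. They were *rps2*, *rps4*, *rps18*, *rpl14*, *rpl16*, *rpoC1*, *accD*, *clpP*, *ycf3*, *ycf4* and *cemA*, and *rps12* did the same among the genes in both copies. *rpl16* read 1752 at 20h, while the next array, 04h, read 1322. *rps2* read 1020 against 793.3 at 16h, and *cemA* 2349 against 1940 on 00h A. *rps18* and *rpl14* exceeded the next array by little, with 332.3 against 332.1 and 655.2 against 648.9.

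Relative to the mean of the other 7 arrays, the members at 20h had a median log2 difference of 0.26, and 20 of 26 were above 0. The same median was -0.02 for the photosynthesis genes and 0.00 for all probe sets tested. The other 7 arrays include the bright-control pair, where 9 of 43 photosynthesis genes read above all other 6, against 3.25% of all probe sets. By median log2 level the photosynthesis genes were also highest at 20h (9.984). The members' median level was 9.851 at 20h, below the 9.863 of 08h. The summed intensity of the members was 26288 at 20h and 21439 to 22953 on the other arrays, which is 0.867% and 0.643% to 0.759% of the intensity of all probe sets. *rps14* and *rpoA* were instead lowest at 20h. The pattern rests on 1 array and has no test. The 25S rRNA control read 496.9 at 20h and 65.8 to 305.2 on the other 5 arrays with dim hybridisation controls, and its part in the pattern was not tested.

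**Figure D4:**
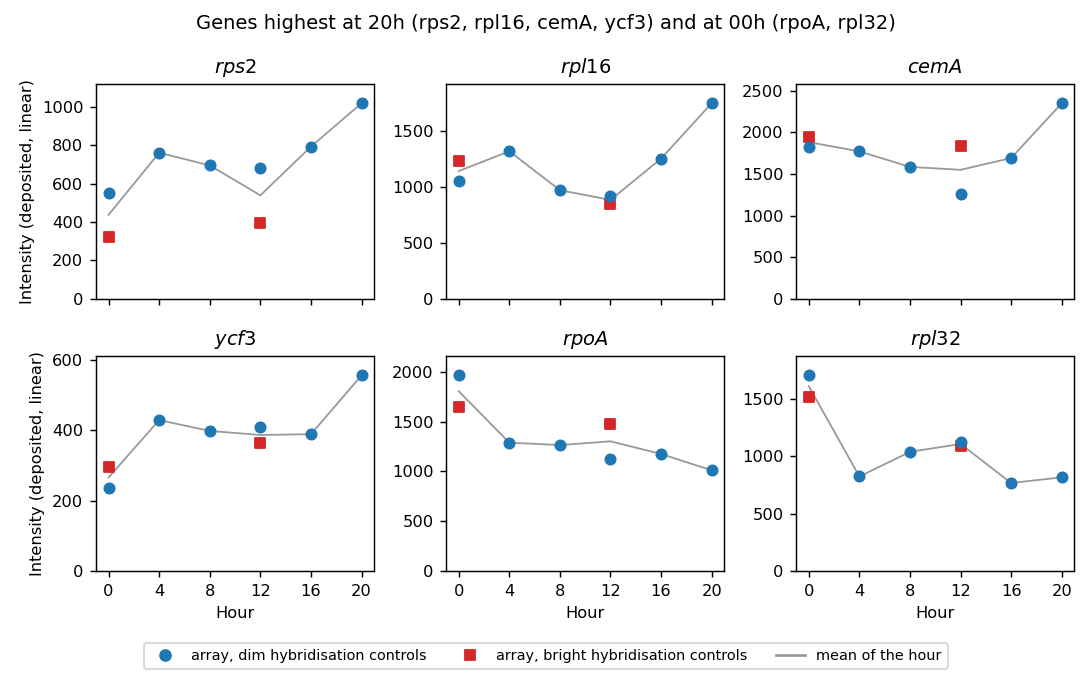
Deposited intensity (linear, from 0) against hour for 4 genes highest at 20h (*rps2*, *rpl16*, *cemA*, *ycf3*) and 2 highest at 00h (*rpoA*, *rpl32*), with markers for arrays with dim (circles) and bright (squares) hybridisation controls and a line through hour means. The 20h point is the top one in the first 4 panels, and both 00h points are in the last 2.

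At 00h, 3 members read higher on both arrays than on the other 6: *rpoA*, *rps19* and *rpl32*, against 11.1% of all probe sets. At 12h there were 4, *rpoB*, *rps14*, *rps16* and *matK*, against 8.87%. The 12h arrays were above those of 00h without overlap for 7 members and below for 4, where all probe sets gave 38.1% and 32.9%, or 71.0% in either direction.

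In the median, the paired arrays of an hour lay farther apart for these genes than over all probe sets. The median size of the A minus B difference was 0.42 log2 units at 00h and 0.41 at 12h for the members, and 0.24 and 0.25 for all probe sets tested. In 19 of the 26 members the difference had the same sign at both hours, lower on A for 11 and higher on A for 8. The same share was not counted over all probe sets, where the differences at the paired hours correlated at 0.30. *rpoC2* was lower on A by nearly the same amount at both hours, with differences of -1.52 and -1.48. *rpl14* was higher on A, by 1.12 and 1.11. *rpoB* and *rps14* differed in opposite directions, with 0.45 and 0.50 at 00h and -0.45 and -0.24 at 12h. Both bright-control arrays were below the other 6 for *rps2*, *rpoC2*, *rps4* and *rps18*, against 4.33% of all probe sets, and above them for *rpl33*, against 3.25%. The 25S rRNA control differed in the same comparison, reading 2996 and 256.3 on A and B of 00h and 869.3 and 65.8 on A and B of 12h. Whether the arrays or the plants behind them differed cannot be told apart.

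**Figure D5:**
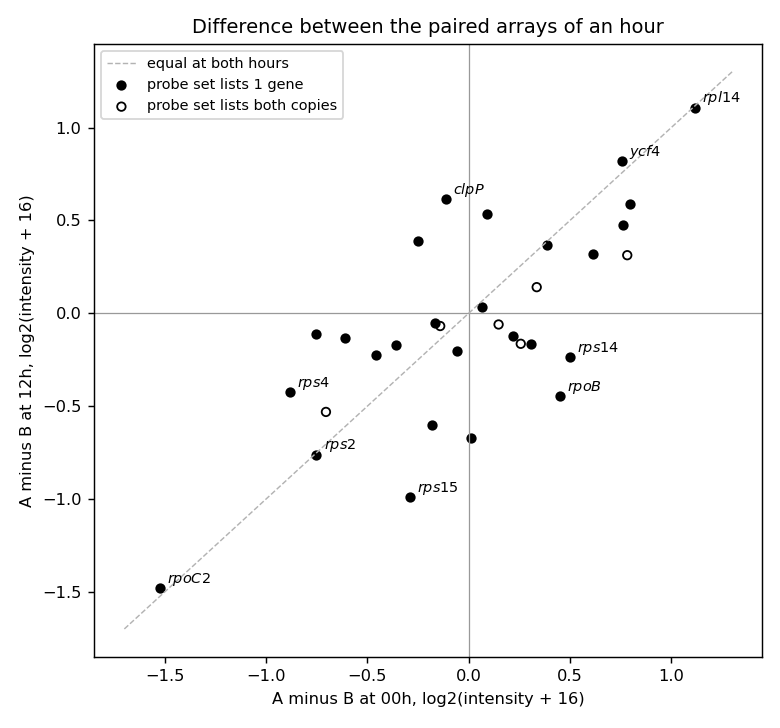
Each point is a plastid gene, with the A minus B difference in log2(intensity + 16) at 00h on the horizontal and at 12h on the vertical axis; the dashed line marks equal differences. *rpoC2* (-1.52 and -1.48) and *rpl14* (1.12 and 1.11) lie at the ends near this line.

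Nuclear genes for partners of these proteins were taken from lists of textbook members. Of 33 nuclear genes of plastid ribosomal proteins 9 had a named probe set and were tested, and limma called 0 at 12h against 00h, also at an unadjusted p below 0.05. Their median log2 change was -0.01, in a range of -0.31 to 0.56. Of 14 nuclear Clp protease genes 5 were tested, with 0 called, 0 at an unadjusted p below 0.05 and a median of 0.46. Over all probe sets tested, limma called 40.5%, and 49.1% had an unadjusted p below 0.05. Of 20 genes of plastid transcription 1 had a named probe set, *RPOTmp*, of a phage-type polymerase, and it was too dim to be tested. The 4 nuclear acetyl-CoA carboxylase genes are not analysed here. Among the 43 plastid photosynthesis genes 7 were higher at 12h and 0 lower, against 21.9% and 18.6% of all probe sets. At an unadjusted limma p below 0.05, 9 were higher and 2 lower, against 26.7% and 22.5%. Their median log2 change was 0.13.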

How the data were processed

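The deposited values are linear intensities, 1 for each probe set on each array; per the submitters' processing notes the authors used MAS5, with no version given. The trimmed mean (2% at each end) was 100 on all 8 arrays, so the deposited intensities were scaled by array, which removes differences in total RNA. Detection calls and probe-level values were not used here. The 64 control probe sets were left out, leaving 22746, of which 13513 name 1 gene, 503 several and 8730 none. Probe sets with a mean log2(intensity + 16) in the lowest 40% were left out, leaving 13647; all 32 members passed.

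limma 3.58.1 (R 4.3.3) was fitted with hour as a factor (residual df 2, which the A and B arrays of 00h and 12h supply, and prior df 8.20) and, for the 24 h curve, with cosine and sine of the hour (residual df 5, prior df 5.24), using eBayes with an intensity trend and Benjamini-Hochberg adjustment at 0.05. Intervals are at 95%. The fits were tested on simulated data. The number of arrays limits the precision. Gene order came from the RefSeq gene table.

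Members, lists and tests were chosen with earlier results of these data known. All members are named by role, with values per array for members past the threshold and the 6 brightest; other values per array, the gene cluster and the patterns by array were chosen after the values were seen. List genes are given by count, and naming was allowed for those past the threshold. Alternatives were another added constant, filter, scaling, variance trend, the replicate letter or control brightness as a block, and leaving out each array.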

Additional observations from a re-analysis of the deposited data

How the results depend on the processing

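At 12h against 00h the count of 3 members, beside 40.5% of all probe sets, became 7 with quantile normalization (41.2% of all). It was also 7 with the replicate block or control brightness as a block (50.7% of all). The blocked fits and quantile normalization called the same 7. The members called also differed when an array of 00h was left out. Over the 17 alternatives the change was 1.32 to 2.37 for *rpoB* and 0.98 to 1.48 for *rps14*. Both, and *rps16*, remained called wherever both arrays of 00h and 12h were kept, and *rps16* fell to 0.65 without 00h A. Not all 17 are separate checks. Leaving out 04h, 08h, 16h or 20h cannot change the estimate, and with hour as a factor both blocks give the same fit. Scaling every array to 1 median turned the members' median change from 0.08 to -0.11, as that of all probe sets went to -0.10, and gave 2348 higher of 5553 calls in place of 2992 of 5528. Over all probe sets, 4385 were called without a filter and 6913 with the block. The count of 1 rhythmic member (40.7% of all probe sets) became 2 with 1 median (*rpl16*, 40.9% of all). It was 2 with control brightness as a block (*rps14*, 44.7% of all). On the 6 dim arrays it was 0, where all calls fell from 5549 to 3694 (27.1% of all). Leaving out arrays gave 0 to 2, with 33.0% to 40.1% of all. Without 12h A there was none, and *rps14* was added without 00h A or 08h A. The count of 2 for 04h, 08h and 12h became 1 with 1 added, 1 without a filter, 4 with quantile normalization and 5 with the replicate block or control brightness as a block; leaving out arrays gave 1 to 3. The *rpoB* call in that contrast held in 8 of 13 alternatives. Both 12h arrays were above the rest for 4 members (8.87% of all probe sets); on the 6 dim arrays, where 12h B alone had to be highest, it was so for 8 (19.9%). The count highest at 20h was 9 to 13 over its alternatives. The cause was not tested.

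The replicate letters were shared by 2 pairs of arrays and coincide there with control brightness. The A minus B differences of the pairs correlated at 0.30 over all probe sets tested, which does not establish a pairing. Averaging all probe sets of a gene was not run, since each of the 26 members has 1. The contrast of 04h, 08h and 12h needs every hour, so single-array hours were not left out there. Dim genes, *rpoB* and *ycf2* outside 12h, are limited by signal near or below the array median.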
